A study of Homo sapiens with 4 samples.

Results

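The genes described here encode the proteins of the cytosolic ribosome, the particle that translates nearly all cellular mRNAs. They were chosen by symbol (RPL or RPS followed by a digit, RPLP0, RPLP1, RPLP2 or RPSA) from the 6145 genes of the deposited comparison table, out of 19729 genes in the per-library files. Of 90 symbols with the prefix, 3 ribosomal S6 kinases, RPS19BP1 and 6 paralogs ending in L or L1 were dropped. Among the 80 genes left, 3 were read-through genes that share exons with RPL17, RPL36A and RPS10, and they are given apart. The remaining 77 genes, 31 of the small and 46 of the large subunit, lie on 21 chromosomes. Membership also rested on a measured value, because a gene entered the table only with a mean of at least 8 over the libraries. The lowest member, RPS29, had a mean of 28.25. S6 kinases aside, the nearest gene of the symbol group outside the table was RPS27L, a paralog ending in L. Its values were 7 and 7 in NonS and 5 and 6 in APC shRNA libraries. All 77 genes passed the filter of a mean of at least 10 that was set for testing.

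HT-29, a human colorectal cancer cell line labelled microsatellite stable (MSS), BRAF-V600E and APC-mutant, carries truncated forms of APC, the scaffold of the complex that marks β-catenin for degradation. Cells had been stably transduced with lentivirus for doxycycline (DOX)-inducible expression of either an APC-directed hairpin (APC shRNA) or a hairpin without a target (NonS). Both groups were at passage 3-5 after transduction and both received 500 ng/ml DOX for 72 h, so that the hairpin target was the stated difference between them. Biological duplicates, I and II, were sequenced from each group, 4 libraries in all, and no untreated or untransduced cells were analysed here. With 2 libraries against 2, a two-sided exact permutation test cannot give a p below 0.333.

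The deposited numbers are whole numbers that behave as values scaled for depth and transcript length rather than as read counts, so the depth in reads is unknown. Their totals ranged from 398338 to 413595 per library. APC itself had values of 3 and 0 in NonS, against 0 and 0 with APC shRNA, which cannot check the silencing. The paper reports lower APC mRNA and protein with this hairpin, the protein by immunoblot. Its own comparison of the sequenced groups lists APC among the genes that fell. Markers of colorectal epithelium were present, among them EPCAM (201, 183, 186 and 224 in NonS I, NonS II, APC shRNA I and APC shRNA II) and KRT8 (1202, 1531, 1534 and 1482), while CDX1 and CDX2 did not exceed 4. LGALS4, a galectin of the same list, fell from 557 and 646 in NonS to 175 and 147 with APC shRNA, a log2 difference of -1.90 ± 0.14 (limma adjusted p = 0.042), and was the 1 marker called of the 8 tested. With any 1 library left out, limma called no gene at all, LGALS4 included. CDH1, which encodes E-cadherin, was at 98 and 119 in NonS, against 74 and 85 with APC shRNA, and did not pass the test (limma adjusted p = 0.14). The part of these marker differences in the results below was not tested. All 5 fibroblast and all 3 endothelial markers were at 0 in every library, as were PTPRC and CD3E. LYZ, of the blood and immune list, was at 614 to 906. In bulk RNA, fewer cells of a kind and less RNA per cell cannot be told apart.

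Each ribosomal protein is needed in 1 copy per ribosome, apart from the stalk proteins RPLP1 and RPLP2, which are present in several. The proteins join ribosomal RNA in the nucleolus, and loss of a single one can stall assembly of its subunit. Their mRNAs are short and abundant, and most begin with a C followed by a run of pyrimidines, the terminal oligopyrimidine (TOP) motif, through which mTOR signalling and the binding protein LARP1 control translation. MYC, a Wnt target in colorectal cancer cells, is known to drive transcription of many ribosomal protein genes.

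The start sites of members that the results below turn on are shown because the TOP motif is the sequence feature that members share and that the symbol rule did not use. Each window holds 15 bases before the start and 15 from it on, from RefSeq (GRCh38.p14), on the strand of the gene, with the C and the pyrimidine run at the start in capitals.
RPS27, chr1:153990747-153990776, plus strand: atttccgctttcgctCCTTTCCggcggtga
RPS13, chr11:17077653-17077682, minus strand: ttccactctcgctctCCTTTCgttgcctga
RPS25, chr11:119018329-119018358, minus strand: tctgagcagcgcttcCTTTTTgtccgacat
RPL34, chr4:108620561-108620590, plus strand: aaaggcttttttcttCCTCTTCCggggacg
RPL39, chrX:119791616-119791645, minus strand: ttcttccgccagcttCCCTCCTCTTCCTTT
RPLP1, chr15:69452803-69452832, plus strand: gtataggcgcgagagCCCCTTTCCTCagct
RPL13A, chr19:49487593-49487622, plus strand: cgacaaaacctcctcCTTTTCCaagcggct
RPS6, chr9:19380222-19380251, minus strand: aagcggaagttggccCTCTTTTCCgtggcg
RPS3A, chr4:151099613-151099642, plus strand: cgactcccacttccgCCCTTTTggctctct
RPS24, chr10:78033848-78033877, plus strand: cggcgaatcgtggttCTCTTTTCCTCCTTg
RPL27, chr17:42998404-42998433, plus strand: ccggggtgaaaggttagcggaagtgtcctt
RPS29, chr14:49598696-49598725, minus strand: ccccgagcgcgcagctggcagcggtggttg

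RPS27, RPS13, RPS25, RPL34, RPL39 and RPLP1 were higher in both APC shRNA than in both NonS libraries, RPS3A, RPS24 and RPL27 had the lowest differences, and RPL27 and RPS29 show no such run at the annotated start. Over 77 promoter entries that matched 62 of the members, a C at the first base followed by at least 4 bases that are each C or T was found in 46 entries (59.7%), against 4.07% of all 35116 promoter entries. The search read only the strand of the gene and only this position. Of the 62 members, 46 had such a start in at least 1 entry, 18 of 24 small subunit and 28 of 38 large subunit members. Their runs were 5 to 19 bases long with a median of 8. The median log2 difference between APC shRNA and NonS was 0.16 over the 46 members with the start and 0.07 over the 16 without it. The ranges of these differences overlapped, from -0.16 to 0.38 and from -0.09 to 0.26.

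Ribosomal protein genes were among the highest values in HT-29. In NonS cells 44 of the 77 members were among the 100 genes with the highest mean, and the highest member ranked 7 of all genes. The median member had a NonS mean of 572.5, with 613.5 over small and 545 over large subunit members. Between the highest and the lowest member the NonS mean differed 123-fold.

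RPL13A (ENSG00000142541, GENCODE v29 position on GRCh38 chr19:49487554-49492308), a large subunit protein also known from the interferon-controlled GAIT complex, had the highest values, 3408 and 3504 in NonS and 4268 and 3518 in APC shRNA libraries. RPS18, in the head of the small subunit, was at 2246 and 2467 in NonS and 2403 and 2504 in APC shRNA libraries. RPL13A and RPS18 did not overlap in NonS cells. RPL39, a very small protein of the exit tunnel, was at 1594 and 1743 in NonS, RPL8 at 1582 and 1643, and RPS2 at 1717 and 1495, and the replicates of these 3 overlapped. Over the whole order, the NonS replicates of neighbours did not overlap in 15 of 76 pairs, so that most neighbours in the order did not differ beyond their spread.

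RPS29 (ENSG00000213741, chr14:49570984-49599164), a zinc-binding protein of the small subunit, had the lowest values, 25 and 31 in NonS and 24 and 33 in APC shRNA libraries. RPL14 came next with 81 and 69 in NonS and 86 and 74 in APC shRNA libraries. RPL31 had 109 and 110 in NonS and 122 and 124 in APC shRNA libraries, and RPS15A had 105 and 117 in NonS and 117 and 125 in APC shRNA libraries, so these overlapped in NonS cells. RPL37 was at 126 and 122 and RPL36 at 122 and 144 in NonS cells.

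The order of levels depends on the transcript length in the scaling, which was inferred. RPS29, RPL14 and RPL37 have longest annotated transcripts of 7062, 7072 and 7686 bases beside median annotated transcripts of 588, 794 and 529 bases. In 20 members the longest transcript was over 4 times the median one. When the NonS level was rescaled to the median transcript, RPL37 moved from rank 73 to rank 25 and RPS7 from rank 30 to rank 5, while RPL13A stayed at rank 1 and RPS29 moved from rank 77 to rank 73. On this scale the highest and lowest members differed 45.7-fold, and the lowest was RPL36. Levels across genes are therefore firm only for large differences, whereas a comparison of 1 gene between libraries does not use the length.

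**Figure D1:**
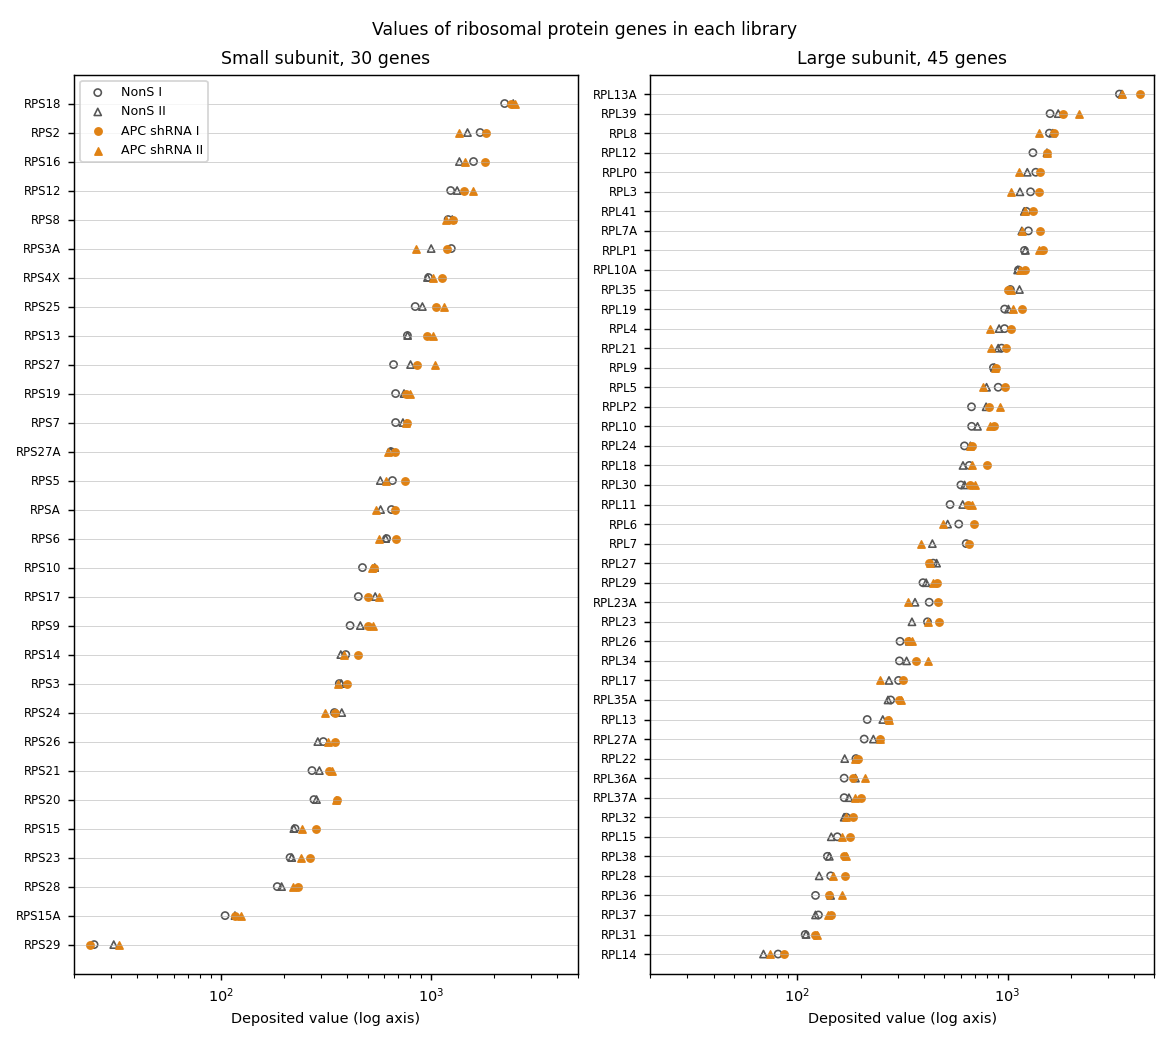
Deposited value of 75 of the 77 ribosomal protein genes (rows, ordered by NonS mean within each subunit) on a log axis in the 4 libraries; open symbols are NonS and filled symbols APC shRNA, circles replicate I and triangles replicate II. Genes spread from 24 for RPS29 to 4268 for RPL13A, and the 4 symbols of a gene lie close together compared with the distance between genes.

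The comparison of APC shRNA with NonS asked which genes change when truncated APC is silenced. No ribosomal protein gene passed the test in either direction: 0 of 77 were called higher and 0 of 77 lower with limma at an adjusted p under 0.05, against 4.33% of all 5376 genes tested called higher and 3.7% called lower. The smallest adjusted p of a member was 0.063 (limma, RPS20), and that of any gene was 0.042, so every call lay just under the threshold. With 2 libraries per group, the lack of calls does not show that the members were unchanged. At an unadjusted p under 0.05, 12 members (15.6%) were past the threshold, all 12 of them higher in APC shRNA cells, against 35.6% of all genes tested in either direction. The values of the members nonetheless lay mostly above 0: 63 had a positive and 14 a negative log2 difference, with a median of 0.14 (1.10-fold) beside a median of 0.03 over all genes tested. Of all 5376 genes tested, 2827 had a positive and 2534 a negative difference. Per library, the median member value was 600 and 575 in NonS, against 666 and 567 with APC shRNA, on either side of NonS. Taken by replicate number, which cannot be shown to pair the libraries, 73 members were higher with APC shRNA in I and 53 in II. The median log2 differences were 0.18 in I and 0.09 in II, beside 0 and 0.02 over all genes tested.

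The members spread little around their median difference between the groups. Their log2 differences ran from -0.16 to 0.38, within percentiles 32.6 to 83.4 of all genes tested, whose differences ran from -2.98 to 6.08. The median size of the difference, regardless of sign, was 0.14 in members and 0.26 over all genes tested. The median size of the difference between replicates was 0.11 in NonS and 0.14 in APC shRNA libraries for the members. Over all genes tested it was 0.14 in each group. A difference between the conditions compares means of 2 libraries. A difference between replicates compares single libraries and varies more by construction, so the 2 sizes are not directly comparable. In 32 members the difference between the conditions was smaller than that between the APC shRNA replicates.

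**Figure D2:**
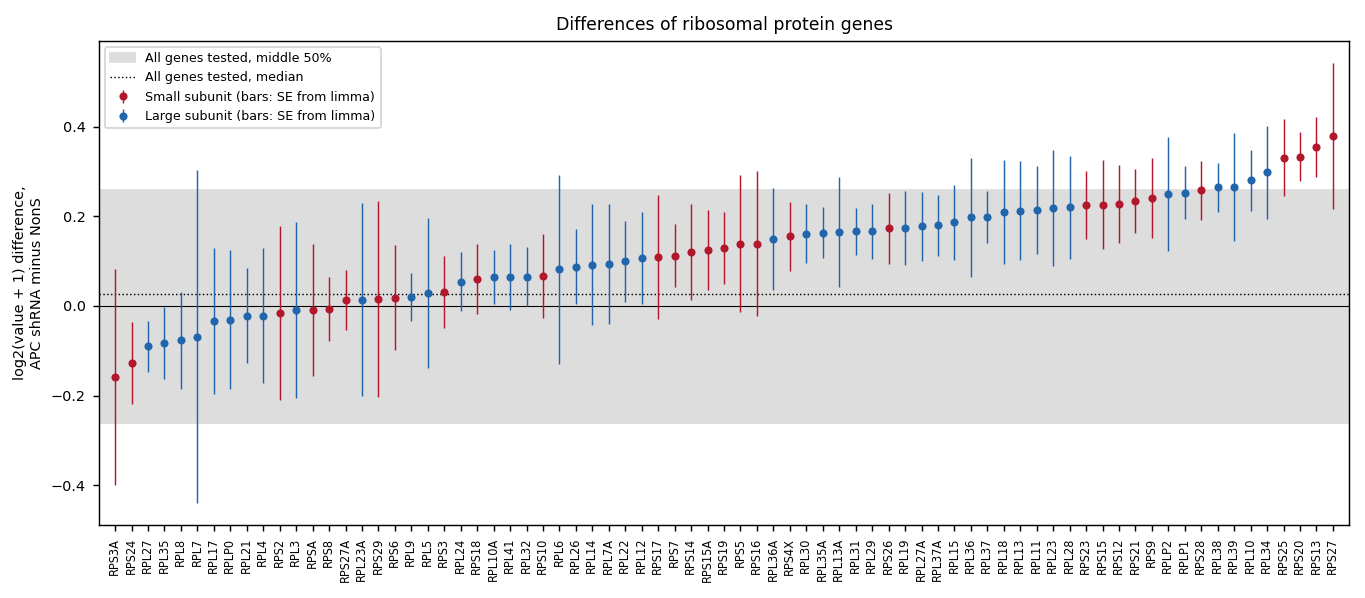
Difference in log2(value + 1) between APC shRNA and NonS for 75 of the 77 ribosomal protein genes, ordered by size, with small subunit genes in red and large subunit genes in blue; bars are standard errors from limma, the grey band is the middle 50% of all genes tested and the dotted line their median. Members run from -0.16 (RPS3A) to 0.38 (RPS27), and most lie above the dotted line and within the band.

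Both APC shRNA libraries were above both NonS libraries in 39 of 77 members (50.6%), against 33% of all genes tested. Both were below in 1 member, RPL27, against 27.5% of all genes tested, and in 37 members the groups overlapped. Both counts depended on single libraries. Without APC shRNA replicate II, 64 members were above, against 38.3% of all genes, and 3 below, against 35.7%. Without APC shRNA replicate I, 46 members were above, against 45.1% of all genes, and 20 below, against 36.2%. Without NonS replicate I, 46 were above, against 38.6%, and 5 below, against 34.5%, and without NonS replicate II, 48 were above, against 42.8%, and 2 below, against 37%. With a trend on coding length removed from each library, an alternative chosen after seeing the data, 25 members (32.5%) were above, against 35.8% of all genes, and 4 were below, against 29.5%.

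Among small subunit genes, RPS27 had the largest log2 difference. This zinc-binding protein of the small subunit was at 665 and 801 in NonS, against 861 and 1047 with APC shRNA. The groups did not overlap, and the log2 difference was 0.38 ± 0.16 (SE, limma adjusted p = 0.21). RPS13 (ENSG00000110700, chr11:17074389-17077787), an early-assembling small subunit protein, had 774 and 776 in NonS and 956 and 1028 in APC shRNA libraries. Its NonS replicates were nearly equal, and the log2 difference was 0.35 ± 0.07 (limma adjusted p = 0.071). RPS20, in the head of the small subunit, was at 278 and 286 in NonS, against 356 and 355 with APC shRNA, a log2 difference of 0.33 ± 0.05 (limma adjusted p = 0.063).

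RPS25, known for its part in initiation on viral internal ribosome entry sites, was at 843 and 912 in NonS, against 1055 and 1153 with APC shRNA, a log2 difference of 0.33 ± 0.09 (limma adjusted p = 0.105). Both APC shRNA libraries were above both NonS libraries. RPS4X, the X-linked form of a small subunit protein, was at 976 and 964 in NonS, against 1135 and 1029 with APC shRNA, also without overlap.

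RPS19 and RPS14 are the genes whose loss of 1 copy is known from Diamond-Blackfan anaemia and from the 5q- syndrome. RPS19 was at 680 and 746 in NonS, against 759 and 800 with APC shRNA, without overlap. RPS14 was at 394 and 373 in NonS, against 450 and 386 with APC shRNA, with 1 APC shRNA library inside the NonS range. RPS27A, made as a fusion with ubiquitin, was at 646 and 645 in NonS, against 675 and 629 with APC shRNA, on either side of the NonS values. RPS15A differed by 0.12 on the log2 scale and RPS18 by 0.06.

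RPS6, the substrate of the ribosomal S6 kinases, was at 616 and 610 in NonS, against 680 and 567 with APC shRNA. RPSA, a small subunit protein also described as a laminin receptor, was at 650 and 577 in NonS, against 676 and 548 with APC shRNA. RPS2 was at 1835 and 1368 in APC shRNA libraries, beside 1717 and 1495 in NonS. In each of these 3 genes replicate I was above and replicate II below both NonS libraries, and the log2 differences were 0.02, -0.01 and -0.02.

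At the other end, RPS3A, a small subunit protein near the mRNA exit, was at 1252 and 1004 in NonS, against 1193 and 846 with APC shRNA. The replicates differed more than the groups, and the log2 difference was -0.16 ± 0.24 (limma adjusted p = 0.66). RPS24 was at 348 and 377 in NonS, against 349 and 315 with APC shRNA, a log2 difference of -0.13 ± 0.09 (limma adjusted p = 0.38). The RPS29 values overlapped entirely, with a log2 difference of 0.02.

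The stalk of the large subunit, which recruits the translation factors that hydrolyse GTP, gave unequal values. RPLP0, its base, was at 1363 and 1242 in NonS, against 1434 and 1132 with APC shRNA, a log2 difference of -0.03 ± 0.16. RPLP1 was at 1204 and 1217 in NonS, against 1476 and 1410 with APC shRNA, a log2 difference of 0.25 ± 0.06 (limma adjusted p = 0.093). RPLP2 was at 674 and 791 in NonS, against 817 and 924 with APC shRNA, a log2 difference of 0.25 ± 0.13 (limma adjusted p = 0.25). Both small stalk proteins thus lay above NonS in both libraries, while RPLP0 lay on either side.

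RPL5 and RPL11 form a particle with 5S ribosomal RNA that can bind the ubiquitin ligase MDM2. RPL5 was at 903 and 795 in NonS, against 977 and 764 with APC shRNA, on either side of the NonS values. RPL11 was at 533 and 612 in NonS, against 648 and 678 with APC shRNA, without overlap, with a log2 difference of 0.21 ± 0.10 (limma adjusted p = 0.23). Of these partners in 1 particle, RPL11 was separated between the groups and RPL5 was not.

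RPL10, added at the last step of large subunit maturation, was at 675 and 720 in NonS, against 865 and 829 with APC shRNA, a log2 difference of 0.28 ± 0.07 (limma adjusted p = 0.099). RPL3, close to the peptidyl transferase centre, was at 1287 and 1146 in NonS, against 1407 and 1034 with APC shRNA, a log2 difference of -0.01 ± 0.20. RPL22, which binds RNA and is not needed for translation in general, was at 190 and 168 in NonS, against 195 and 188 with APC shRNA. RPL22 overlapped between the groups, RPL3 spread to both sides of NonS, and RPL10 lay above NonS in both libraries.

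RPL34 was at 306 and 331 in NonS, against 366 and 419 with APC shRNA, and RPL39 at 1843 and 2177 in APC shRNA libraries. In both genes the groups did not overlap, as also in RPL13A, RPL31 and RPL37. RPL36 (142 and 163 in APC shRNA libraries) and RPL14 overlapped with NonS.

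RPL27 was the 1 member below NonS in both libraries, with 443 and 460 in NonS and 421 and 427 in APC shRNA libraries and a log2 difference of -0.09 ± 0.06 (limma adjusted p = 0.34). RPL35, beside the exit tunnel, was at 1032 and 1140 in NonS, against 1006 and 1042 with APC shRNA, and RPL8 was at 1657 and 1410 in APC shRNA libraries. RPL7 had the widest spread between replicates, with 636 and 439 in NonS and 654 and 388 in APC shRNA libraries. The groups overlapped in RPL35, RPL8 and RPL7.

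The subunits were compared with each other, since their proteins are needed in equal number. The median log2 difference was 0.13 over the 31 small and 0.15 over the 46 large subunit members. Both APC shRNA libraries were above both NonS libraries in 15 small (48.4%) and 24 large subunit members (52.2%), against 33% of all genes tested. The median log2 level of small minus large subunit members was 0.21 and 0.24 in the NonS replicates, against 0.05 and 0.29 in the APC shRNA replicates. The APC shRNA values lay on either side of the NonS values, and the group means differed by -0.05 (exact permutation p = 1, two-sided, n = 2 per group). A difference between the subunits was therefore not detectable beyond the spread between replicates.

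All members together made up 13.7% and 13.3% of the sum of all values in the NonS replicates and 15% and 13.9% of it in the APC shRNA replicates. The 2 groups did not overlap, with a mean of 13.5% ± 0.28 (SD, n = 2) for NonS against 14.4% ± 0.81 (SD, n = 2) for APC shRNA and an exact two-sided permutation p of 0.333, the smallest the design allows. APC shRNA replicate II exceeded NonS replicate I by a small margin, and without APC shRNA replicate I the difference of the means fell from 0.91 to 0.33 percentage points, while without APC shRNA replicate II it was 1.48 percentage points. The small subunit share was 5.89% and 5.71% in NonS and 6.47% and 6.08% in APC shRNA libraries, without overlap. The large subunit share was 7.83% and 7.61% in NonS and 8.53% and 7.77% in APC shRNA libraries, with overlap. With each value weighted by the longest transcript length, all members made up 9.89% and 9.87% in NonS. In APC shRNA libraries they made up 11.2% and 10.2% (exact two-sided permutation p = 0.333).

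The members differed among themselves along the length of their coding sequence, which ran from 75 to 1281 bases with a median of 456. Over the 77 members the log2 difference between APC shRNA and NonS fell with coding length (Spearman correlation -0.47 across genes, which share the 4 libraries and are not replicates). In 2826 other genes tested with coding lengths in the same range the correlation was -0.06. The 26 shortest members (75 to 405 bases) had a median log2 difference of 0.19, the 25 in the middle 0.13 and the 26 longest (576 to 1281 bases) 0.05. Both APC shRNA libraries were above NonS in 17 of the shortest, 12 of the middle and 10 of the longest members (65.4%, 48% and 38.5%), against 31.7%, 32.9% and 32.4% of other genes of those lengths. The other genes had far lower values, with median log2 values in NonS I of 4.88, 4.91 and 4.64. In the members these medians were 8.19, 8.79 and 9.78, so the level rose with coding length. The part of the level in this gradient was not tested.

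Replicates of the same group differed along coding length too. Replicate II minus replicate I gave a Spearman correlation with coding length of -0.43 in NonS and -0.67 in APC shRNA libraries over the members, against 0.01 and -0.11 in the 2826 other genes. In APC shRNA cells replicate II was below replicate I in 24 of the 26 longest and in 9 of the 26 shortest members, with medians of -0.25 and 0.04 on the log2 scale. In NonS cells the corresponding counts were 16 and 5, with medians of -0.05 and 0.11. RPS3A, RPL3, RPS2, RPLP0, RPL5 and RPL7, all at or over 744 bases, were lower in replicate II than in replicate I of both groups, whereas RPS27, RPL39 and RPLP2, at 345 bases or fewer, were higher in replicate II of both. RPL41, the shortest member at 75 bases, and RPL37, at 291 bases, went against this order and were lower in replicate II of both groups. The part of this gradient in the difference between APC shRNA and NonS was not tested.

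**Figure D3:**
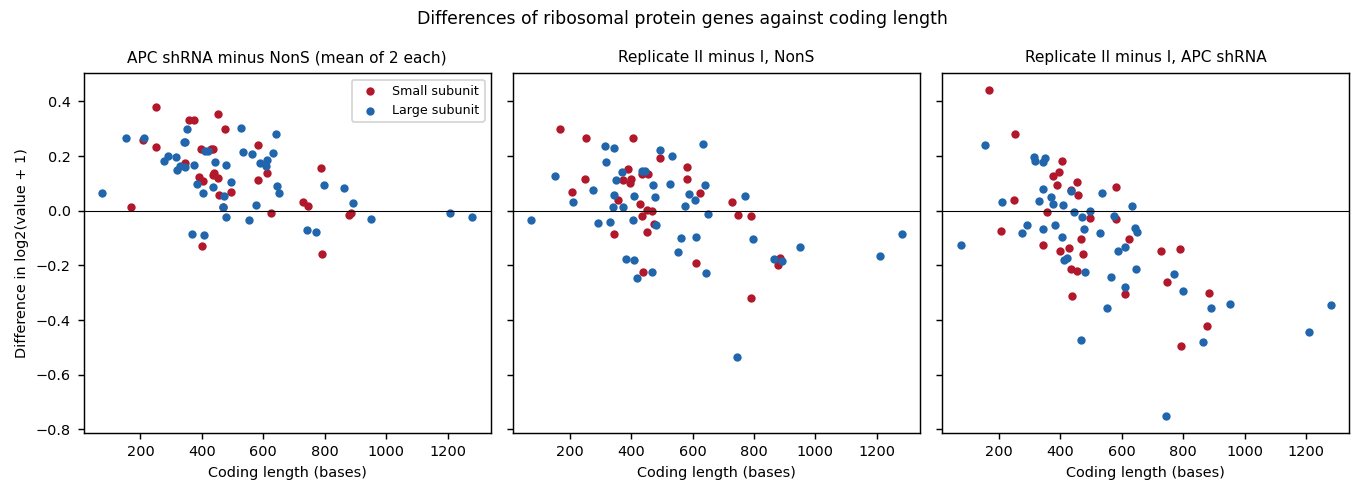
Difference in log2(value + 1) of each ribosomal protein gene (small subunit red, large subunit blue) against its coding length in bases, for APC shRNA minus NonS (left), replicate II minus I in NonS (middle) and replicate II minus I in APC shRNA (right), on 1 shared vertical axis. All 3 panels slope downwards with length, with Spearman correlations of -0.47, -0.43 and -0.67, and the steepest slope is between the APC shRNA replicates.

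Sequence copies limit single values. In GENCODE v29, 1132 pseudogenes are named after 76 of the 77 members, with 91 for RPL23A, 74 for RPSA, 66 for RPL21 and 61 for RPL7, so that values of these genes are uncertain where reads could be placed on a copy. In 35 members another gene, often a small nucleolar RNA gene, shares exonic bases on the same strand. Of these other genes only 7 had values in the libraries, the 3 read-through genes among them, and none was a small nucleolar RNA gene. The read-through genes gave values close to each other in both groups: RPL17-C18orf32 had 183 and 162 in NonS and 191 and 154 in APC shRNA libraries, RPS10-NUDT3 had 443 and 491 in NonS and 491 and 485 in APC shRNA libraries, and RPL36A-HNRNPH2 had 267 and 308 in NonS and 294 and 311 in APC shRNA libraries. None of the 3 was called, and the groups overlapped in each.

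Ribosomal proteins whose symbols lie outside the rule were compared in the same fit. FAU, which encodes a ubiquitin-like fusion with a small subunit protein, was at 153 and 167 in NonS, against 178 and 176 with APC shRNA. RACK1, the scaffold protein on the small subunit, was at 338 and 320 in NonS, against 392 and 321 with APC shRNA. FAU did not overlap between the groups, RACK1 did, and neither was called or had an unadjusted p under 0.05 with limma. Of 8 listed paralogs 5 could be tested with limma, and 0 were called and 0 had an unadjusted p under 0.05: RPL36AL, the highest, was at 264 and 227 in NonS, against 255 and 189 with APC shRNA, and RPL7L1, at 55 and 52 in NonS, was below in both with 47 and 51. Over all genes tested 8.04% were called and 35.6% had an unadjusted p under 0.05, so counts over 5 paralogs say little.

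Translation factors and other genes known for TOP mRNAs were next compared. Of the 16, all were tested with limma, 0 were called in either direction and 2 (EEF1D and EIF3F) had an unadjusted p under 0.05, against 35.6% of all genes tested. Among them 5 lay above NonS in both libraries and 2 below, against 33% and 27.5% of all genes tested, and their median log2 difference was 0.15. EEF1A1, the factor that delivers aminoacyl-tRNA, was at 2550 and 2495 in NonS, against 3182 and 2468 with APC shRNA. EEF1D, a subunit of its exchange factor, was at 81 and 89 in NonS, against 116 and 116 with APC shRNA, with a log2 difference of 0.45 ± 0.07 (limma adjusted p = 0.063). EEF1B2, another subunit, was at 523 and 494 in NonS, against 493 and 359 with APC shRNA, below in both, and so was NPM1, a nucleolar chaperone, at 463 and 410 in NonS and 407 and 314 in APC shRNA libraries.

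Among 10 regulators of these mRNAs 7 were tested with limma, 0 were called and 1, AKT1S1, had an unadjusted p under 0.05. Over all genes tested 8.04% were called and 35.6% had an unadjusted p under 0.05, so counts in so short a list say little. LARP1, which binds the TOP start, was at 51 and 49 in NonS, against 46 and 47 with APC shRNA. MTOR was at 15 and 14 in NonS, against 15 and 15 with APC shRNA. EIF4EBP1, an inhibitor of cap-dependent initiation, was at 43 and 36 in NonS, against 33 and 20 with APC shRNA, and EIF4EBP2 at 20 and 21 in NonS and 26 and 35 in APC shRNA libraries, so that these related inhibitors lay on opposite sides of NonS without passing the test.

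Of 8 chaperones and partners of ribosomal proteins 7 were tested with limma, 0 were called and 0 had an unadjusted p under 0.05. The shares over all genes tested were 8.04% and 35.6%, so this list too is short for such counts. GRWD1, a chaperone of RPL3, was below NonS in both libraries, with 27 and 29 in NonS and 25 and 25 in APC shRNA libraries. BTF3, of the complex that binds nascent chains, was at 349 and 316 in NonS, against 374 and 365 with APC shRNA.

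Genes of the response to nucleolar stress were listed last. MYC was at 114 and 89 in NonS, against 85 and 65 with APC shRNA, below in both, with a log2 difference of -0.43 ± 0.21 (limma adjusted p = 0.25). CDKN1A, an inhibitor of the cell cycle, was at 6 and 11 in NonS, against 3 and 5 with APC shRNA, and MDM2 at 4 and 4 and at 3 and 3, both too low to be tested.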

How the data were processed

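Per the study's methods, total RNA of HT-29 cells was isolated, and stranded mRNA libraries made from it were sequenced as short single reads. The 4 libraries were grouped here by the sample labels. By the same methods, the authors mapped reads to GRCh38 with TopHat2, counted them with htseq-count on GENCODE v29 and compared groups with DESeq2. The processing notes that the authors gave list hg19, bcl2fastq 2.19.0.316 and DESeq2 1.4.1. For each of 19729 genes the authors deposited whole numbers, 1 for each library, treated here as a score of unstated scale: values times the longest transcript length in kb summed to 980841 to 984873 in every library, and replicates of low genes varied 0.484 (NonS) and 0.364 (APC shRNA) times as much as independent counts would. The deposited comparison table also holds a mean over libraries, used only to choose members, and fold changes and adjusted p-values, not used. The number of per-sample columns not used was 0.

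Genes with a mean of at least 10 (5376) were compared on log2(value + 1) with limma 3.58.1 in R 4.3.3 (lmFit, eBayes with a mean-variance trend), two-sided, with Benjamini-Hochberg adjustment over all of them. Fold changes are on that scale. The prior degrees of freedom were 1.14. The test was tried on simulated data first. Values per library were compared with an exact permutation test in Python 3.11.15 with scipy 1.17.1. Loess trends had a span of 0.5. GENCODE v29 holds 19502 of the 19729 identifiers. Alternatives covered scaling, filters, the adjusted p threshold, pseudocount, moderation, a replicate block, GC content, lengths, and each library left out.

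The members and gene lists were chosen with earlier results of these data known. Genes named are APC, the 6 highest and 6 lowest members by NonS mean, the 6 largest differences in each direction, 15 members of known role and listed related genes. A few other members, among them RPL34 and RPS7, were named after their values were seen. Some genes that this rule names are not reported here.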

Additional observations from a re-analysis of the deposited data

How the results depend on the processing

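No member was called higher or lower under 17 of 19 alternatives. Over all genes the calls ranged from 0 to 2473, and none was made without any 1 of the libraries, so those 4 alternatives say nothing on the members. Another of the 19, a threshold of 0.01 in the main fit, could call no gene, since no limma adjusted p there fell below 0.042. That alternative says nothing on the members either. With every gene of a total of at least 1 tested, 2 members were called higher, RPS20 and RPL38, against 7.44% of all genes. The replicate numbers mark no shared batch in the labels, and with 2 pairs they cannot be shown to pair the libraries, although replicate II minus I correlated between the conditions across all genes tested (0.724). A replicate block gave 0 members called higher and 0 lower, with 1023 genes called in place of 432. These were 19% of all genes, with 9.73% of all genes called higher. With GC content correction added to the replicate block, 14 members were called higher, led by RPL34, RPS20 and RPS27, while 22.9% of all genes were called higher, and the cause was not tested. The median log2 difference over members stayed within 0.09 to 0.18 under every alternative run. Members above NonS in both libraries numbered 46 to 64 when each library was left out in turn (38.3% to 45.1% of all genes), 32, 33 and 34 under median-of-ratios scaling, equal totals and equal totals outside these genes (31.9%, 32.1% and 35.5% of all genes), and 25 with coding length correction (35.8%). Members below numbered 2 to 20 when each library was left out (34.5% to 37%), 3 under each of these scalings (34%, 33.7% and 29.9%), 2 with gene length correction (29.8%), 4 with GC content correction, with or without the block (31.3%), and 4 with coding length correction (29.5%). Members above numbered 42 with GC content correction (34.7% of all genes) and 39 with gene length correction (35.7%). Leaving out a library makes non-overlap easier by construction. Small minus large subunit changed from -0.05 to 0.15 when taken over members above the median of all members by mean value, and the cause was not tested. Count models were planned for counts only and were not run on these scaled values. Rounding limits low genes such as RPS29.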
